A study of Mus musculus with 12 samples.

Results

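The comparison described here set busulfan-treated testes that had received microbiota from oligosaccharide-dosed donors against untreated testes, in 6 of the 12 testis RNA-seq libraries of the series. The 3 libraries named IMA10 came from ICR mice, an outbred stock, that had received busulfan once, aged 3 weeks, and then, for 2 weeks, gut microbiota taken from mice dosed with alginate oligosaccharide at 10 mg/kg body weight. Their testes were collected after a further 3 weeks. The 3 libraries named Con came from ICR mice labelled as untreated, whose age the labels do not give. The 6 other libraries, 3 from busulfan mice given saline (Sa) and 3 from busulfan mice given microbiota of water-fed donors (IMC), appear only as ranges beside the results. The deposited text speaks of cultured testis without naming a culture step. Con columns are named with a different prefix from the busulfan libraries, and its meaning is not explained. Batch and any difference in age therefore cannot be told apart from the absence of busulfan. Members were taken by their labels, and 13981 of 22221 genes with at least 1 FPKM (fragments scaled to transcript length and to the mapped total of the library) in 3 or more of the 6 libraries were tested on log2(FPKM + 1).

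Spermatogenesis runs from spermatogonia, the stem and dividing progenitor cells at the base of the tubule, through spermatocytes, which pass meiosis, to round spermatids and then to elongating spermatids, whose histones are replaced by transition proteins and protamines. Sertoli cells nurse these stages inside the tubule, and Leydig cells outside it make testosterone. Busulfan alkylates DNA and kills mainly dividing spermatogonia, so later stages are lost as the existing cells mature and leave. Alginate oligosaccharides are short sugar chains from brown algae. Each transcript class is described below in that order of maturation, with the value of each library, because the IMA10 libraries differed widely. In whole testis, fewer cells of a type and less RNA per cell cannot be told apart.

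The IMA10 libraries did not form a tight group. The labels give all 3 the same treatment, and whether the library labelled IMA10 replicate 3 came from a mouse treated as labelled was not tested; if it did not, each of its values and each group call would change in meaning. IMA10 replicate 3 correlated across genes with the Con libraries at 0.902 to 0.913 and with the other IMA10 libraries at 0.562 to 0.667, while IMA10 replicates 1 and 2 correlated with each other at 0.975 and with Con at 0.287 to 0.418. The median SD of log2 values over genes was 0.703 in IMA10 and 0.098 in Con. Of the tested genes, 79.0% lay within 2-fold of the Con mean in IMA10 replicate 3, against 30.9% in replicate 1 and 32.5% in replicate 2. Genes with at least 1 FPKM numbered 12931 to 13003 in Con, and 12726, 13680 and 13835 in IMA10 replicates 1, 2 and 3. Testis identity held by its markers in Con, where every Sertoli and Leydig marker was above 0 and the round and elongating spermatid lists were high and the epididymis and skeletal muscle lists summed to at most 4.82 and 2.62 FPKM.

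In limma, 5414 genes were higher in IMA10 than in Con (38.7% of those tested) and 1834 were lower (13.1%) at an adjusted p under 0.05, with 8474 at an unadjusted p under 0.05. Without IMA10 replicate 3, 6834 were higher (48.9%) and 5408 lower (38.7%). Leaving out any other single library (IMA10 replicate 1 or 2, or Con replicate 1, 2 or 3) gave 0 genes in limma in either direction, with 6268 to 6780 at an unadjusted p under 0.05, so every call reported below for the 6 libraries was lost in those 5 fits. Benjamini-Hochberg adjustment gave 3349 genes the same adjusted p of 0.0241, which therefore recurs. The labels do not name separate animals, so the p-values speak of the spread among these libraries, which may be technical. The median log2 change over all genes was 0.29, and it was -0.18 after median-of-ratios scaling, which gave 3029 genes higher and 2781 lower. Libraries of the 2 groups did not overlap in 47.6% of genes in the higher direction and in 19.8% in the lower direction.

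Taken per library against the Con mean, most genes far from Con in IMA10 replicates 1 and 2 were near it in replicate 3. In replicate 1, 36.8% of genes stood at least 2-fold above the Con mean and outside the Con range, and 32.2% at least 2-fold below. Replicate 2 had 38.3% above and 29.0% below, and replicate 3 had 13.2% above and 7.78% below. Of the 4503 genes at least 2-fold below Con in replicate 1, 3477 (77.2%) were within 2-fold of Con in replicate 3 and 1007 were also at least 2-fold below there. Among the elongating spermatid genes described below, all 34 were at least 2-fold below Con in replicates 1 and 2 and 33 were so in replicate 3.

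From differentiating spermatogonia on, the list medians fell with each later stage in every IMA10 library, but to different depths. As the median over members in percent of the Con mean, undifferentiated spermatogonia genes stood at 101% in IMA10 replicate 1, 142% in replicate 2 and 169% in replicate 3, and differentiating spermatogonia genes at 69.5%, 154% and 206%. Early meiotic prophase genes stood at 11.8%, 54.5% and 137%, and pachytene and later spermatocyte genes at 2.62%, 11.3% and 109%. Round spermatid genes stood at 1.56%, 4.80% and 55.1%, and elongating and condensing spermatid genes at 0.233%, 0.642% and 13.9%. The first list with a median under 20% of Con was thus early prophase in replicate 1, pachytene in replicate 2 and elongating spermatids in replicate 3. With median-of-ratios scaling replicate 3 stood lower, at 99.2% for early prophase, 79.4% for pachytene, 40.0% for round and 10.1% for elongating genes. The same scaling put the undifferentiated list at 71.6%, 88.6% and 122% and the differentiating list at 49.3%, 96.1% and 150%, so that values above Con in replicates 1 and 2 turned to values below it.

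**Figure D1:**
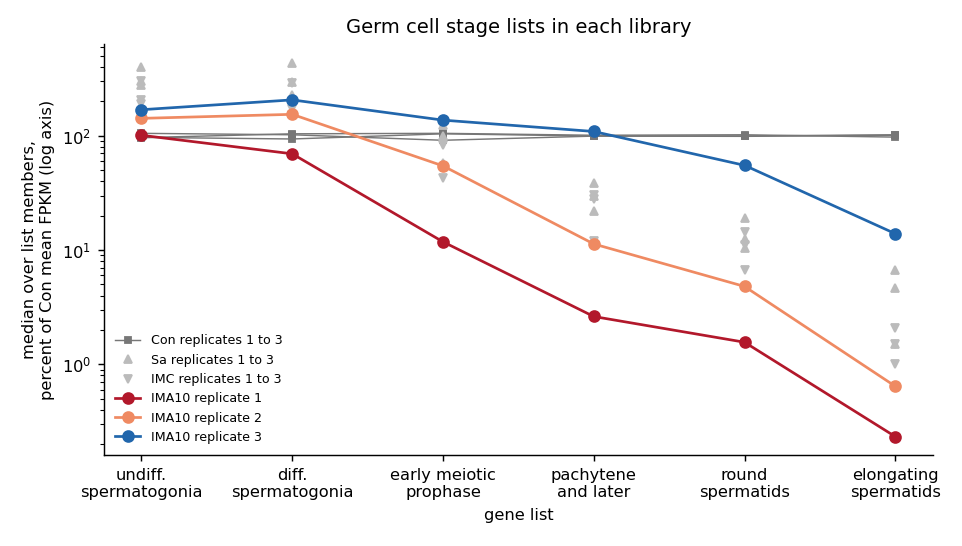
Median over the members of 6 germ cell lists, in percent of the Con mean FPKM (log axis), for every library; coloured lines are the 3 IMA10 libraries, dark squares the Con libraries and pale triangles the Sa and IMC libraries. IMA10 replicate 3 stays above 100% up to the pachytene list (below it after median-of-ratios scaling, at 99.2% for early prophase and 79.4% for pachytene) and drops to 13.9% in the elongating list, where IMA10 replicates 1 and 2 are at 0.233% and 0.642%.

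Undifferentiated spermatogonia include the stem cells that renew the germ line. Of the 21 genes of this list 11 had values high enough to be tested, and 5 were higher and 2 lower in IMA10 (limma, adjusted p under 0.05). These shares, 45.5% and 18.2%, lay near the 38.7% and 13.1% of all tested genes. The same 5 and 2 genes passed without IMA10 replicate 3. With median-of-ratios scaling 3 were higher and 2 lower. The median log2 change was 0.31, beside 0.29 over all genes. Uchl1, a ubiquitin hydrolase of spermatogonia that other testis cells can also express, measured 22.3, 24.0 and 20.2 FPKM in Con and 89.7, 96.6 and 55.5 FPKM in IMA10 replicates 1, 2 and 3. Its groups did not overlap, and its log2 change was 1.78 ± 0.28 (SE, limma adjusted p = 0.0241). Etv5, a GDNF-induced transcription factor that Sertoli cells express too, measured 4.42 to 5.20 FPKM in Con and 46.1, 45.2 and 11.4 FPKM in IMA10. Foxo1, a transcription factor of stem cell maintenance, rose by 1.69 ± 0.36.

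The 2 members that fell belong to GDNF signalling. Gfra1, the co-receptor through which spermatogonial stem cells sense GDNF, measured 2.40, 2.74 and 2.54 FPKM in Con and 0.26, 0.58 and 1.63 FPKM in IMA10 replicates 1, 2 and 3. The IMA10 values were all below the Con values, lowest in replicate 1, with a log2 change of -1.03 ± 0.30 (limma adjusted p = 0.0325). Lhx1, a GDNF target, was at 1.03 to 1.87 FPKM in Con and at 0.00, 0.11 and 0.15 FPKM in IMA10. Id4, the inhibitor of differentiation that marks stem cells, was at 15.9 to 18.7 FPKM in Con and 17.7, 20.2 and 29.3 FPKM in IMA10, and did not pass (adjusted p = 0.334 in limma). Zbtb16, Ret, Nanos2, Sall4 and Pax7 were under the minimum for testing, at up to 1.67 FPKM in IMA10.

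Differentiating spermatogonia divide several times before they enter meiosis. Of the 15 genes, all tested, 5 were higher and 0 lower, and 10 did not pass; the 33.3% higher lay near the 38.7% of all tested genes. With median-of-ratios scaling 2 were higher. Kit, the receptor tyrosine kinase of these cells that Leydig and mast cells carry as well, measured 2.92, 2.58 and 2.72 FPKM in Con and 7.61, 7.48 and 5.84 FPKM in IMA10, with no overlap (log2 change 1.09 ± 0.21, limma adjusted p = 0.0241). Dmrt1, which guards spermatogonia against early meiosis and is also made by Sertoli cells, measured 8.52 to 9.76 FPKM in Con and 62.2, 61.2 and 23.2 FPKM in IMA10. Stra8, the retinoic acid target that licenses meiosis, was at 7.52 to 8.70 FPKM in Con, at 3.68 FPKM in IMA10 replicate 1 and at 13.6 and 16.2 FPKM in replicates 2 and 3, so the groups overlapped. Sohlh2, Rhox13, Prss50 and Crabp1 had the same order, with replicate 1 below the Con range and replicate 3 above it. Dmrtb1, which lets spermatogonia pass into meiosis, stood apart from its list at 413 to 430 FPKM in Con and 8.72, 34.3 and 479 FPKM in IMA10.

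Early meiotic prophase genes build the synaptonemal complex and make and repair the programmed DNA breaks. Of 35 genes 34 were tested, and 0 were higher and 2 lower, at 5.88% lower beside 13.1% of all tested genes. Without IMA10 replicate 3, 22 were lower, or 64.7% beside 38.7% of all genes. Sycp3, a lateral element protein, measured 63.1, 79.8 and 78.3 FPKM in Con and 8.11, 50.5 and 101 FPKM in IMA10 replicates 1, 2 and 3. Only IMA10 replicate 3 lay above the Con range, and the difference did not pass in limma (log2 change -1.04 ± 0.88, adjusted p = 0.332). Spo11, the enzyme that cuts DNA to start recombination, was at 14.9 to 18.7 FPKM in Con and at 0.59, 4.05 and 35.6 FPKM in IMA10, which is 213% of the Con mean in replicate 3. Across the list, replicate 3 held 32 of 35 members at 80% of Con or more, replicate 2 held 10 and replicate 1 held 1.

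The 2 called members of this list were those that remained low in replicate 3. Syce2, a central element protein of the synaptonemal complex, measured 206, 230 and 239 FPKM in Con and 10.7, 26.2 and 74.4 FPKM in IMA10 (log2 change -2.97 ± 0.67, limma adjusted p = 0.0241). M1ap, needed for meiotic progression, measured 23.5 to 27.6 FPKM in Con and 1.42, 2.35 and 7.54 FPKM in IMA10 (-2.66 ± 0.49). Rec8, a meiotic cohesin, was at 4.29, 5.72 and 37.2 FPKM against 49.7 to 52.7 FPKM and did not pass (adjusted p = 0.0511 in limma). Prdm9, which places recombination sites, was the member that was not below the Con mean in replicate 1, at 1.66 FPKM there against 1.32 to 1.54 FPKM in Con.

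Pachytene and later spermatocytes begin to express the glycolytic isozymes, heat shock proteins and fertility proteins that sperm will use. Of 28 genes, all tested, 1 was higher and 2 were lower, at 7.14% lower beside 13.1% of all tested genes. With median-of-ratios scaling 0 were higher and 5 lower. Without IMA10 replicate 3, 1 was higher and 26 lower, at 92.9% lower beside 38.7%. Ldhc, the germ cell lactate dehydrogenase, measured 2518, 2528 and 2476 FPKM in Con and 51.2, 196 and 2445 FPKM in IMA10. Replicate 3 lay close below the Con range and replicates 1 and 2 far under it, so that limma gave -3.10 ± 1.36 (adjusted p = 0.0984) with all libraries and -4.63 (adjusted p = 0.000383) without replicate 3. Meig1, needed for the shaping of spermatids, and Ybx2, an RNA-binding protein that stores germ cell mRNA, measured 2086 and 1537 FPKM in replicate 3 against Con means of 2723 ± 172 and 1790 ± 27.2 FPKM (SD, n = 3). In replicate 1 they were at 85.4 and 26.5 FPKM.

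The members of this list that passed were not typical of it. Pgk2, the germ cell phosphoglycerate kinase, measured 577 to 610 FPKM in Con and 4.38, 14.8 and 187 FPKM in IMA10 (log2 change -4.56 ± 1.26, limma adjusted p = 0.0294). Calr3, a testis calreticulin, measured 69.1 to 74.9 FPKM in Con and 5.03, 5.39 and 11.1 FPKM in IMA10 (-3.22 ± 0.33, limma adjusted p = 0.0146). Both remained low in replicate 3, at 31.5% and 15.6% of the Con mean, where 22 of the 28 members were at 80% or more. Sirpa, a membrane glycoprotein that macrophages carry as well, was the member that rose, from 1.20 to 1.33 FPKM in Con to 4.21, 5.09 and 1.85 FPKM in IMA10.

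Genes of the piRNA pathway, which silences transposons in spermatogonia and spermatocytes, stood at a median of 10.2%, 21.5% and 131% of Con in IMA10 replicates 1, 2 and 3, with 94.8% in replicate 3 after median-of-ratios scaling. Of 19 tested genes 1 was higher and 0 were lower, beside 13.1% lower of all tested genes, and without IMA10 replicate 3, 1 was higher and 18 lower, at 94.7% lower beside 38.7%. Mael, a component of the germ cell granule called nuage, measured 971 to 1025 FPKM in Con and 25.6, 114 and 963 FPKM in IMA10 (log2 change -2.80 ± 1.25, limma adjusted p = 0.104). Fkbp6, a co-chaperone of the pathway, was the member that rose, at 31.8 to 37.4 FPKM in Con and 89.0, 85.7 and 73.8 FPKM in IMA10 (1.23 ± 0.21, adjusted p = 0.0241). It was the gene of this list that replicates 1 and 2 did not hold below Con, apart from Piwil4, which was under the minimum for testing.

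Axoneme genes, which encode the dyneins, tektins and radial spokes of the sperm tail, followed the pachytene genes. Their medians were 2.11%, 7.73% and 107% of Con in IMA10 replicates 1, 2 and 3, and 77.9% in replicate 3 with median-of-ratios scaling. Of 29 tested genes 3 were lower and 0 higher, at 10.3% lower beside 13.1% of all tested genes, and without IMA10 replicate 3 all 29 were lower, beside 38.7%. Dnah8, an outer-arm dynein heavy chain, measured 280, 366 and 379 FPKM in Con and 3.40, 26.6 and 455 FPKM in IMA10, above the Con range in replicate 3 alone. Ropn1, a protein of the fibrous sheath, measured 265 to 271 FPKM in Con and 1.24, 4.99 and 78.8 FPKM in IMA10 (-4.72 ± 1.28, limma adjusted p = 0.0281), whereas its relative Ropn1l measured 33.3, 96.6 and 1086 FPKM against 1072 to 1117 FPKM.

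Among the IMA10 libraries, the 29 tested axoneme genes other than Rsph3b were lowest in replicate 1 and highest in replicate 3. Rsph3b, a radial spoke protein, measured 89.4, 93.7 and 84.7 FPKM in Con and 21.3, 11.9 and 16.6 FPKM in IMA10 replicates 1, 2 and 3 (log2 change -2.39 ± 0.27, limma adjusted p = 0.0169). Its 3 IMA10 values were alike and all lay below those of the 6 Sa and IMC libraries, which ran from 35.1% to 94.6% of the Con mean. Mice carry a near-identical copy of this gene, so how reads were shared between the copies is uncertain.

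**Figure D2:**
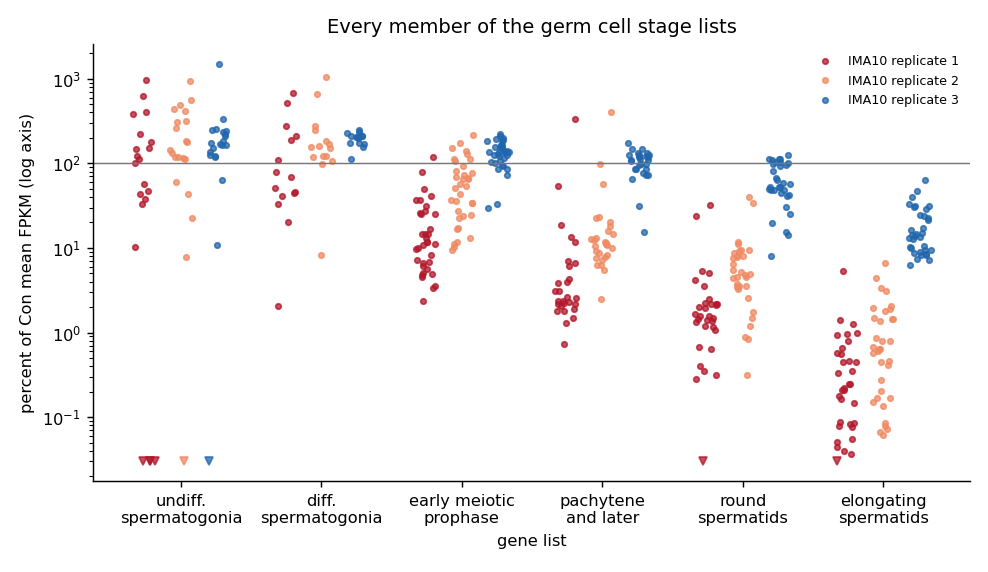
Each point is 1 gene of the 6 germ cell lists in 1 IMA10 library, in percent of its Con mean FPKM (log axis, line at 100%); triangles at the bottom stand for values under 0.03%. In IMA10 replicate 3 the early meiotic points run from 30.0% to 225%, with a median of 137%. The pachytene points run from 15.6% to 174% there, with a median of 109%. In the same library the round spermatid points spread from 8.0% to 126%, and the elongating points lie between 6.35% and 63.1%.

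Round spermatids build the acrosome, the enzyme sac that opens the egg coat, and begin to shape the sperm head and tail. Of 32 genes, all tested, 19 were lower and 0 higher, at 59.4% beside 13.1% of all tested genes. Without IMA10 replicate 3 all 32 were lower. In IMA10 replicate 3, 12 members stood at 80% of Con or more, 7 at 50 to 80%, 9 at 20 to 50%, 3 at 10 to 20% and 1 under 10%. Each of the 13 genes that did not pass stood at 67.3% of Con or more in that library.

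Several acrosome genes were near the Con level in IMA10 replicate 3, and others were not. Acr, the protease acrosin, measured 197, 188 and 189 FPKM in Con and 3.87, 12.4 and 190 FPKM in IMA10 replicates 1, 2 and 3, so replicate 3 lay inside the Con range and the difference did not pass (limma, -3.05 ± 1.31, adjusted p = 0.0941). Spink2, an acrosin inhibitor, measured 782 to 807 FPKM in Con and 28.5, 74.5 and 891 FPKM in IMA10. Zpbp2, a zona pellucida binding protein, stood at 114% of Con in replicate 3, Acrbp, which binds proacrosin, at 105%, Dpy19l2, which anchors the acrosome, at 113%, and Spata16, needed for acrosome formation, at 109%. Among other genes of the acrosome, Acrv1 stood at 57.2%, Spaca1 at 63.4%, Spaca4 at 48.0% and Spaca7 at 44.8%, and these passed. Rfx2 and Crem, transcription factors that drive spermatid genes, stood at 96.0% and 82.0%. In replicates 1 and 2 Acr, Spink2, Zpbp2, Acrbp, Dpy19l2, Spata16 and Rfx2 were between 1.97% and 9.39% of Con, and Crem was at 3.87 and 8.02 FPKM there against 70.6 to 76.6 FPKM in Con.

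Other spermatid genes stood lower in the same library. Gsg1, a germ cell membrane protein, measured 1874, 1713 and 1676 FPKM in Con and 5.52, 14.6 and 269 FPKM in IMA10 (log2 change -5.86 ± 1.35, limma adjusted p = 0.0241). The testis-specific serine kinases Tssk1, Tssk2, Tssk3 and Tssk6, needed for the late shaping of sperm, stood at 40.7%, 19.7%, 14.2% and 8.0% of Con in replicate 3. Tssk6 measured 255 to 293 FPKM in Con and 0.96, 0.85 and 21.8 FPKM in IMA10 (-5.97 ± 1.00, adjusted p = 0.0241 in limma). The sperm calcium channel genes Catsper1, Catsper3 and Catsper4 stood at 49.0%, 48.7% and 53.1%, while Catsper2 stood at 105%. Izumo1, the sperm protein that binds the egg membrane, was listed at 0 in replicate 1 and stood at 17.8 FPKM in replicate 3 against 39.6 to 44.1 FPKM in Con.

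Elongating and condensing spermatids compact their chromatin and assemble the fibrous sheath of the tail. Of 34 genes, all tested, 33 were lower and 0 higher, at 97.1% beside 13.1% of all tested genes, and without IMA10 replicate 3 all 34 were lower. Prm1 (Gene ID 19118), a protamine that packs sperm DNA, measured 11022, 10299 and 10602 FPKM in Con and 5.47, 7.09 and 880 FPKM in IMA10 replicates 1, 2 and 3. The groups did not overlap, and IMA10 replicate 3 stood at 8.27% of the Con mean, with a log2 change of -8.21 ± 1.91 for the group (limma adjusted p = 0.0241). Prm2 (Gene ID 19119), the other protamine, measured 12779 to 12998 FPKM in Con and 5.72, 7.84 and 817 FPKM in IMA10 (-8.46 ± 1.86). Tnp1 and Tnp2, the transition proteins that precede them on DNA, measured 2.74, 8.28 and 447 FPKM and 5.14, 9.31 and 571 FPKM in IMA10, against Con means of 4973 ± 404 and 6109 ± 508 FPKM (SD, n = 3).

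Within this list IMA10 replicate 3 ranged from 6.35% of Con for Prm2 to 63.1% for Tsga8. Low members included Prm2, Prm1, Spem1, which strips cytoplasm from the sperm, at 7.16%, Fscn3, a testis fascin, at 8.20%, and the near-identical ketone-body enzyme genes Oxct2a and Oxct2b at 8.39% and 7.43%, whose reads may have been split. Of the fibrous sheath and tail genes, Akap3 stood at 33.3% and Tekt5 at 39.7%. Near the list median of 13.9% were Akap4 at 13.7% and Gapdhs, the sperm glycolytic enzyme bound to the sheath, at 14.7%. Odf1, of the outer dense fibers, was near it too, at 15.0%. Tcp11, which supports sperm motility, stood at 46.8%, or 808 FPKM against a Con mean of 1728 ± 97.2 FPKM. In replicate 1, 31 of the 34 members were under 1% of Con, and in replicate 2 the number was 22.

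**Figure D3:**
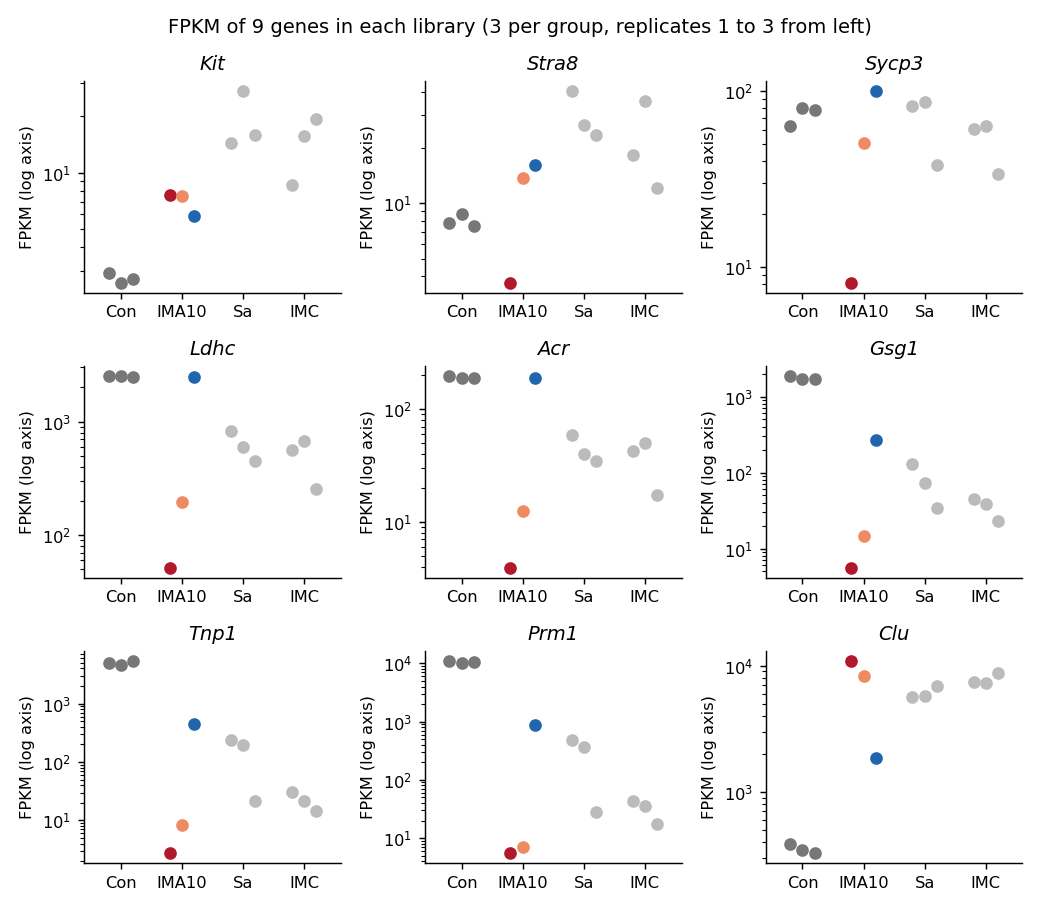
FPKM of 9 genes in every library (log axes, each with its own range), in the order of the stages, with red, orange and blue points for IMA10 replicates 1, 2 and 3, dark grey for Con and pale grey for Sa and IMC. IMA10 replicate 3 is near the Con level in Ldhc and Acr, lies below it in Gsg1, Tnp1 and Prm1, and lies above it in Sycp3, Kit and Clu; for the Sertoli gene Clu, IMA10 replicate 3 is at 1834 FPKM between Con and replicates 1 and 2.

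Promoters are shown for the spermatid genes because the start regions of several of them share a short sequence. The bases, from RefSeq on build GRCm38.p6, are the 120 before the transcription start, 5′ to 3′ on the gene's strand, with the 8-base sequence TGATGTCA or its reverse complement TGACATCA in capitals. These letters resemble the cyclic AMP response element to which CREM, an activator of spermatid genes, is known to bind.
Tnp1, chr1:73015900-73016019, minus strand: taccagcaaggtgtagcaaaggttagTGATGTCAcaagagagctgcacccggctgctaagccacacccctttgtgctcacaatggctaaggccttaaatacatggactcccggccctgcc
Akap4, chrX:7067395-7067514, plus strand: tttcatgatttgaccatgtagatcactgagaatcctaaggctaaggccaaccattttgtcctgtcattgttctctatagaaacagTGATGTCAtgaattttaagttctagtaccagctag
Gapdhs, chr7:30743682-30743801, minus strand: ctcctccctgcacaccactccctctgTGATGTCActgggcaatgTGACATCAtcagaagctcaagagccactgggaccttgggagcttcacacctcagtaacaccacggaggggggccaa
Gsg1, chr6:135254337-135254456, minus strand: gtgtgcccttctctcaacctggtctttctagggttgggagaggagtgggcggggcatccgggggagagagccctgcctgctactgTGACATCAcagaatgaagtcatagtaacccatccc
Actl7a, chr4:56743302-56743421, plus strand: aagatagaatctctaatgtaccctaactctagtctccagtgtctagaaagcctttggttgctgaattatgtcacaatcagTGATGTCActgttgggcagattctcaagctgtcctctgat

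The sequence was chosen after these promoters had been read, so its counts are a description. In the RefSeq window from 250 bases before to 50 after the start, TGATGTCA or TGACATCA was found in 1130 of 27025 genes (4.18%). It was found in 7 of the 28 elongating spermatid genes with a promoter in the table (25.0%), namely Tnp1, Akap3, Akap4, Gapdhs, Smcp, Actl9 and Cylc1. In the round spermatid list 5 of 27 held it (18.5%), namely Spaca7, Gsg1, Sun5, Actl7a and Actl7b. The pachytene list held it in 1 of 20 genes (5.0%), and the spermatogonial, early prophase, axoneme, piRNA, Sertoli and Leydig lists in 0. The myoid list, most of whose genes rose, held it in 2 of 11 (18.2%). The palindrome TGACGTCA, which shares no match with those letters, was found in 549 of 27025 genes (2.03%) and in 1 gene each of the round and the elongating list, Izumo1 and Ccin. The 5 round spermatid genes with the sequence stood between 15.3% and 67.3% of Con in IMA10 replicate 3, inside the 8.0% to 126% of the whole list.

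Ratios of genes within 1 library, which its scaling does not change, set later stages against earlier ones. Prm1 over Acr, a late against an earlier spermatid gene, was 54.7 to 56.2 in Con and 1.41, 0.573 and 4.64 in IMA10 replicates 1, 2 and 3. Acr over Sycp3, a spermatid against a spermatocyte gene, was 2.36 to 3.13 in Con and 0.477, 0.245 and 1.88 in IMA10. The IMA10 values were below Con in all 3 libraries, and replicate 3 was the IMA10 library nearest to Con in both. In the Sa and IMC libraries Prm1 over Acr ran from 0.711 to 9.26, and Sa replicates 1 and 2, at 8.25 and 9.26, were nearer to Con than IMA10 replicate 3. Acr over Sycp3 ran from 0.455 to 0.914 there, below IMA10 replicate 3. For the germ cell isozymes against their somatic partners, Ldhc over Ldha was 3.69 to 3.84 in Con and 0.540, 1.47 and 3.43 in IMA10, and Pgk2 over Pgk1 was 65.0 to 75.2 in Con and 0.0733, 0.265 and 11.5 in IMA10. Gapdhs over Gapdh was 6.98 to 7.59 in Con and 0.00238, 0.00796 and 0.538 in IMA10.

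**Figure D4:**
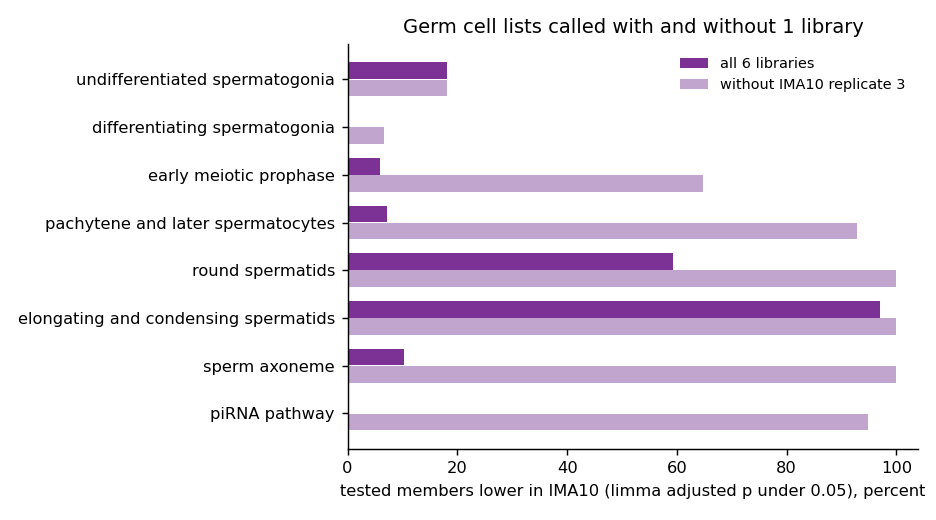
Percent of the tested members of each germ cell list that were lower in IMA10 than in Con (limma, adjusted p under 0.05), with all 6 libraries (dark bars) and without IMA10 replicate 3 (pale bars), where the background over all tested genes is 13.1% and 38.7%. The early prophase, pachytene, axoneme and piRNA bars are short with all libraries and long without replicate 3, while the elongating spermatid bar is long in both.

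Somatic cell transcripts were higher in all 3 IMA10 libraries. Of the 26 Sertoli cell genes, all tested, 26 were higher and 0 lower, at 100% beside 38.7% of all tested genes, with a median log2 change of 3.21 beside 0.29 over all genes. With median-of-ratios scaling 25 were higher. Their median percent of the Con mean was 2090%, 1800% and 393% in IMA10 replicates 1, 2 and 3. Clu, a secreted chaperone and the most abundant of them, measured 385, 346 and 325 FPKM in Con and 10873, 8288 and 1834 FPKM in IMA10, with no overlap (log2 change 3.96 ± 0.69, limma adjusted p = 0.0241). Inha, the inhibin subunit that restrains FSH, measured 37.6 to 48.0 FPKM in Con and 1598, 1331 and 261 FPKM in IMA10, and Amh, the anti-Müllerian hormone of immature Sertoli cells, 0.91 to 0.99 FPKM and 41.2, 33.6 and 8.72 FPKM. Gdnf, the stem cell factor whose receptor subunit Gfra1 fell, measured 0.34 to 0.44 FPKM in Con and 8.80, 7.53 and 1.12 FPKM in IMA10 (2.02 ± 0.60, limma adjusted p = 0.035), and Kitl, the ligand of Kit, rose by 2.85 ± 0.69.

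Set against the Sertoli list of the same library, the germ cell lists and the other somatic lists were below Con in each IMA10 library. The undifferentiated list relative to the Sertoli list stood at 4.83%, 7.89% and 43.0% of the Con value in IMA10 replicates 1, 2 and 3, and the differentiating list at 3.33%, 8.56% and 52.4%. The early prophase list stood at 0.565%, 3.03% and 34.9% and the pachytene list at 0.125%, 0.628% and 27.7%. The Leydig list stood at 44.6%, 52.3% and 64.6% by the same measure, the myoid list at 26.6%, 32.3% and 49.1% and the endothelial list at 26.3%, 26.3% and 39.9%. In replicate 3 the endothelial list was thus lower than both spermatogonial lists, while in replicates 1 and 2 the germ cell lists were the lower ones.

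Leydig cell genes rose in all 19 tested cases, at 100% beside 38.7% of all tested genes. With median-of-ratios scaling 15 rose, beside 3029 of the 13981 tested genes. The list medians were 933%, 942% and 254% of Con. Insl3, the hormone of testis descent, measured 450, 465 and 475 FPKM in Con and 5271, 5512 and 1419 FPKM in IMA10 (log2 change 2.90 ± 0.57, limma adjusted p = 0.0241). Cyp17a1, which makes androgen precursors, measured 74.0 to 113 FPKM in Con and 725, 698 and 242 FPKM in IMA10. Hsd17b3, the last step to testosterone, rose by 2.91 ± 0.55. No Leydig value of IMA10 overlapped with Con for any of the 19 genes, beside 47.6% of all tested genes without overlap in this direction. Replicate 3 was the lowest IMA10 library in the genes named here.

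**Figure D5:**
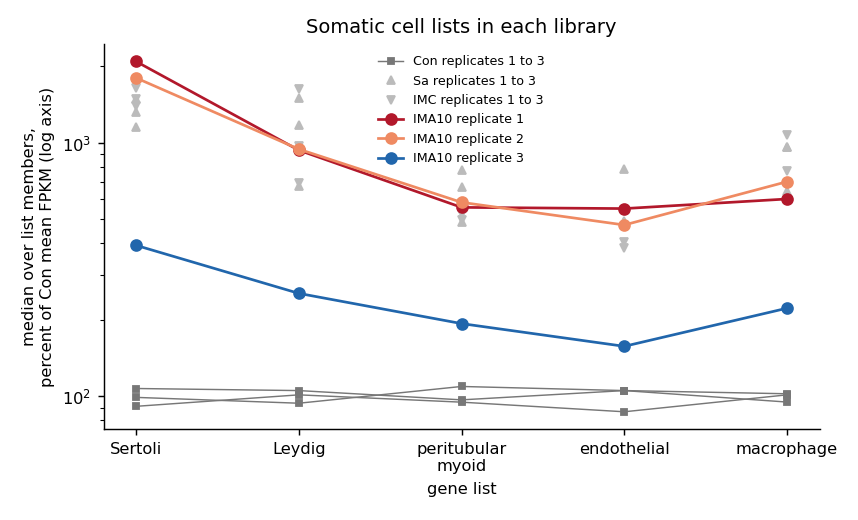
Median over the members of 5 somatic cell lists, in percent of the Con mean FPKM (log axis), for every library, with symbols for Con, Sa, IMC and the 3 IMA10 libraries as given in the legend. IMA10 replicates 1 and 2 lie above the Sa and IMC libraries in the Sertoli list, while IMA10 replicate 3 lies between them and Con in all 5 lists, at 157% to 393%.

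The other somatic lists of the testis moved the same way with fewer calls. Of 14 tested peritubular myoid genes 12 were higher and 1 was lower (8 and 1 with median-of-ratios scaling). These were 85.7% and 7.14%, beside 38.7% and 13.1% of all tested genes. Acta2, the smooth muscle actin of the tubule wall, measured 26.0 to 34.0 FPKM in Con and 198, 220 and 78.9 FPKM in IMA10. Of 14 endothelial genes 7 were higher and 0 lower, at 50% higher near the 38.7% of all tested genes, with Cdh5, the cadherin of vessel walls, rising by 1.97 ± 0.46. Only 1 endothelial gene was higher with median-of-ratios scaling, and 12 were higher and 1 lower without IMA10 replicate 3. Of 16 tested macrophage and antigen presentation genes 11 were higher and 1 was lower, at 68.8% and 6.25% by the same comparison with all genes. With median-of-ratios scaling 7 of them were higher and 1 was lower. The lysozyme gene Lyz2 was at 7.44 to 10.9 FPKM in Con and 70.3, 93.3 and 23.5 FPKM in IMA10.

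Each of these lists also held a member that was lower in IMA10 replicates 1 and 2 than in Con. Actg2, an enteric smooth muscle actin placed in the myoid list, measured 260, 244 and 250 FPKM in Con and 13.2, 14.1 and 48.1 FPKM in IMA10 (log2 change -3.53 ± 0.52, limma adjusted p = 0.0241). Aif1, a macrophage marker, measured 310, 310 and 339 FPKM in Con and 2.58, 5.95 and 61.3 FPKM in IMA10 (-4.79 ± 1.04). Sox17 of the endothelial list was at 7.48 to 8.26 FPKM in Con and 2.70, 2.90 and 9.90 FPKM in IMA10, so replicate 3 lay above Con, and the difference did not pass with all libraries (limma adjusted p = 0.22). Levels of Aif1 and Actg2 in Con exceeded those of all other members of their lists. Which cells carried either transcript was not tested.

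Red blood cell genes stood at a list median of 559%, 817% and 144% of Con in IMA10 replicates 1, 2 and 3. Of 4 tested genes 2 were higher, at 50% beside 38.7% of all tested genes. With median-of-ratios scaling 0 were higher, and without IMA10 replicate 3 all 4 were, beside 48.9% of all genes. Hba-a1, an alpha globin, was at 21.1 to 38.7 FPKM in Con and 183, 186 and 53.7 FPKM in IMA10. Of 15 lymphocyte and mast cell genes 2 were tested, of which 1 was higher and 1 lower. Kit, described above, was the higher one. Cd3d, of the T cell receptor complex, fell from 9.52 to 10.7 FPKM in Con to 0.13, 0.51 and 2.73 FPKM in IMA10 (log2 change -2.56 ± 0.47, limma adjusted p = 0.0241). The list medians, mostly of genes too low to be tested, were 273%, 273% and 112% of Con in IMA10 replicates 1, 2 and 3. Adipoq, a fat cell hormone and the 1 adipocyte gene tested, measured 11.2 to 12.6 FPKM in Con and 0.06, 0.57 and 3.66 FPKM in IMA10 (-2.72 ± 0.56). Which cells of the testis carried the Cd3d and Adipoq transcripts was not tested. The epididymis and skeletal muscle lists had 1 tested gene each, and neither passed.

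Pathway lists mostly followed the somatic transcripts. Blood-testis barrier junction genes were higher in 16 of 21 tested cases and lower in 0, with Cldn11, the claudin of the Sertoli barrier, at 29.0 to 33.0 FPKM in Con and 878, 719 and 143 FPKM in IMA10. Of 19 p53 and apoptosis genes 14 were higher and 0 lower, and Bax, which opens mitochondria in apoptosis, rose by 2.17 ± 0.44. Of 12 inflammation genes 9 were higher, among them Nfkbia, the NF-kappaB inhibitor, with 3.80 to 5.23 FPKM in Con and 124, 110 and 20.6 FPKM in IMA10. Cholesterol synthesis genes were higher in 14 of 22 cases and retinoic acid genes in 10 of 15, including Aldh1a1, a retinoic acid synthase, at 89.1 to 112 FPKM in Con and 1040, 1080 and 304 FPKM in IMA10. In this order, the higher calls of these 5 lists were 76.2%, 73.7%, 75%, 63.6% and 66.7% of tested members. Over all tested genes the share was 38.7%. With median-of-ratios scaling the calls of the 5 lists were 13, 10, 8, 10 and 7 higher and 1, 2, 0, 1 and 0 lower. That scaling gave 3029 genes higher and 2781 lower of all 13981.

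The mitosis list and part of the glutathione list did not follow the somatic lists. Of 24 mitosis and DNA replication genes 3 were higher, the replication helicase genes Mcm2, Mcm3 and Mcm4, and 0 were lower, which is 12.5% and 0% beside 38.7% and 13.1% of all tested genes. With median-of-ratios scaling 1 was higher and 0 were lower. Without IMA10 replicate 3, 6 were higher and 14 lower, at 58.3% lower beside 38.7%. Aurka, the spindle kinase most abundant in this list, measured 134 to 149 FPKM in Con and 6.63, 19.6 and 187 FPKM in IMA10. Mcm3 measured 7.50 to 8.12 FPKM in Con and 21.3, 25.0 and 17.4 FPKM in IMA10, with no overlap (1.31 ± 0.23, limma adjusted p = 0.0241). Of 28 glutathione and antioxidant genes 22 were higher and 3 lower, at 78.6% and 10.7% beside 38.7% and 13.1% of all tested genes. The 3 were Gpx4, a peroxidase of the sperm midpiece, Gstm5, a testis glutathione transferase, and Prdx4, a peroxiredoxin of the secretory pathway. With median-of-ratios scaling 16 members of this list were higher and 3 lower, beside 3029 and 2781 of all 13981 tested genes. Gpx4 measured 1538 to 1685 FPKM in Con and 291, 316 and 1067 FPKM in IMA10 (-1.78 ± 0.54, limma adjusted p = 0.0367).

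Over all genes, the largest changes that passed in limma were of 2 kinds. The 10 largest falls without overlap were Prm2, Prm1, Tnp1, Tnp2, Spem1, H2al2a, Spata3, Oaz3, Fam71f2 and Dnajb8, with log2 changes from -8.46 to -6.53. H2al2a, a spermatid histone variant with close copies, measured 315 to 338 FPKM in Con and 0.13, 0.00 and 27.7 FPKM in IMA10, and Oaz3, a spermatid antizyme, 3042 to 3229 FPKM and 5.16, 14.1 and 331 FPKM. The 10 largest rises were Tnni3, Tubb5, Igfbp3, Timp1, Cpe, Ddr1, Serpina5, Fabp5, Inha and Shbg, with log2 changes from 4.19 to 5.31. Igfbp3, which binds insulin-like growth factors, measured 0.97 to 1.62 FPKM in Con and 127, 151 and 13.3 FPKM in IMA10, and the protease inhibitor Serpina5 23.7 to 27.1 FPKM and 1175, 1015 and 168 FPKM. Tubb5 and Tnni3 were uneven in Con, at 0.05, 8.04 and 0.19 FPKM and at 6.38, 3.03 and 0.32 FPKM.

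The genes with the widest spread among the IMA10 libraries were Prm1, Prm2, Tnp1, Dnah8, Tnp2, Tex22, Ybx2, Tcte3, Pgam2 and Ldhal6b, each with a log2 range between 5.76 and 7.09. Tex22, a testis-expressed protein, measured 159 to 177 FPKM in Con and 0.94, 7.57 and 170 FPKM in IMA10, so that IMA10 replicate 3 lay inside the Con range. Pgam2, a phosphoglycerate mutase, measured 1054 to 1107 FPKM in Con and 14.0, 56.3 and 818 FPKM in IMA10. Ldhal6b, a testis lactate dehydrogenase, measured 610 to 628 FPKM in Con and 11.7, 49.5 and 690 FPKM in IMA10. Each of the 10 genes was highest in replicate 3 and lowest in replicate 1.

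Beside the other busulfan libraries, IMA10 replicate 3 was above and IMA10 replicates 1 and 2 were mostly below in spermatid genes. All 32 round spermatid and all 34 elongating spermatid genes were higher in IMA10 replicate 3 than in any of the 6 Sa and IMC libraries. In IMA10 replicate 1 all 32 round and 33 elongating genes were lower than in any of those 6, and in replicate 2 the numbers were 28 and 33. Spermatogonial genes showed this order only in part. Replicate 3 was above all 6 of those libraries in 1 of 21 undifferentiated and 1 of 15 differentiating genes. It was below all 6 in 9 and 4. Replicate 1 was below all 6 in 13 undifferentiated and 12 differentiating genes, and replicate 2 in 5 and 5. Of the 35 early prophase genes, replicate 3 was above all 6 in 18, replicate 1 below all 6 in 35 and replicate 2 below all 6 in 12. Over all tested genes, replicate 3 was the highest of the 9 busulfan libraries in 39.0% and replicate 1 the lowest in 38.0%. Those shares set each library against the other IMA10 libraries as well. None was taken for replicate 2, for replicate 3 as the lowest or for replicate 1 as the highest. The counts of members in those directions, the Sertoli counts among them, therefore stand without a share over all genes. For Prm1 the Sa and IMC libraries ran from 0.166% to 4.55% of the Con mean, between the values of IMA10 replicates 2 and 3. The Sertoli list gave the mirror order, with all 26 genes of replicate 3 below all 6 of those libraries and 21 genes of replicate 1 above them. As groups, IMA10 and Sa differed in 0 of 13981 genes in limma with all 12 libraries (720 at an unadjusted p under 0.05), and IMA10 and IMC in 0 (197 at an unadjusted p under 0.05). Why 1 library of the group differed from the other two was not tested.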

How the data were processed

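The authors deposited 1 table of FPKM values with a column for each of the 12 libraries, per the file headers; the aligner, counting program, build and annotation behind it were not given in the sources used here. Read depth is unknown. FPKM is scaled to the library total, so a fall of very abundant transcripts raises the others. Columns were assigned through the sample labels. Gene IDs were matched to RefSeq symbols (GRCm38.p6), 20141 of 20288 numeric IDs, and 1933 rows are new genes of the authors. Values were analysed as log2(FPKM + 1), with at least 1 FPKM in 3 or more of the 6 libraries. The 6 libraries were fitted alone with limma (version 3.58.1, under R 4.3.3), using a mean-variance trend, 1 spread for both groups and Benjamini-Hochberg adjustment; fold changes are on this log2 scale with moderated SE and understate low genes. A set of 25 lists (516 entries, 513 in the table) described stages and cell types, without list tests. The members, lists and comparison were chosen with earlier results of these data known. The procedure was tested on simulated data. Their noise was drawn separately for each gene, so a library that shifts many genes together was not simulated.

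The rule for named genes took the 10 largest rises and falls past the threshold with a mean of at least 5 FPKM and no overlap, the 10 widest ranges over IMA10, and per list the 3 members with the highest level and the 3 with the smallest p; all other genes named were chosen after their values were seen. Alternatives were median-of-ratios scaling, quantile normalization, a pseudocount of 0.1, no filter, a filter of 5 FPKM, all 12 libraries in the fit, array weights, no variance trend, the replicate number as a block, and each library left out.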

Additional observations from a re-analysis of the deposited data

How the results depend on the processing

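The counts of genes called in limma, 5414 higher and 1834 lower, depended on single libraries. They ranged from 0 to 6834 higher and from 0 to 5408 lower when 1 library was left out, where the IMA10 arm without a library keeps 2. Higher calls numbered 3029 with median-of-ratios scaling, 2659 with quantile normalization and 3425 with a filter of 5 FPKM. Lower calls numbered 2781 with median-of-ratios scaling, 3672 with all 12 libraries in the fit, 5407 with array weights, and 6615 without IMA10 replicate 3 and with median-of-ratios scaling together. The share of higher calls was 74.7% and fell to 52.1% with median-of-ratios scaling, 56.9% with quantile normalization, 63.7% with all 12 libraries and 56.3% with array weights. The cause was not tested. No gene named with a call changed direction, and of the others 6 did. With median-of-ratios scaling the log2 changes were -0.21 for Id4, -0.25 for Stra8, -0.41 for Prss50 and -0.17 for Crabp1. With quantile normalization they were -0.08 for Stra8, -0.14 for Prss50 and -0.03 for Crabp1, and Prss50 stood at -0.04 with array weights. Without IMA10 replicate 3 and with median-of-ratios scaling together, Id4 stood at -0.44, Stra8 at -0.63, Prss50 at -0.97 and Crabp1 at -0.60. With 1 library left out, Prss50 ranged from -0.44 to 0.72, Stra8 from -0.12 to 0.82, Crabp1 from -0.11 to 0.83, Sohlh2 from -0.49 to 0.47 and Rhox13 from -0.58 to 0.35.

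The groups share replicate numbers, and deviations of equally numbered Con and IMA10 libraries correlated at 0.144, 0.053 and 0.152. Pairs of unlike number ran from -0.159 to 0.058. Whether equal numbers stand for a shared batch or pairing was not tested. With the replicate number as a block, 3681 genes were higher and 1331 lower. Con replicates 1, 2 and 3 and IMA10 replicates 1 and 3 correlated best with their own number, and IMA10 replicate 2 correlated at 0.058 with Con replicate 1 against 0.053 with its own number. Values without counts set no limit of detection here, and 3 libraries a group limit the precision.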

Other observations

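Mast cell genes were at low levels throughout and highest of the IMA10 libraries in replicate 2. Cma1, a mast cell chymase, was at 0.46, 2.50 and 0.00 FPKM in IMA10 replicates 1, 2 and 3, and Mcpt4, another chymase, at 0.32, 2.99 and 0.19 FPKM. The tryptase gene Tpsb2 was at 0.41, 2.79 and 0.06 FPKM and the carboxypeptidase gene Cpa3 at 0.11, 1.68 and 0.29 FPKM. In Con each was at 0.37 FPKM or less. These genes did not reach the minimum for testing.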
